A study of Vitis vinifera with 24 samples.

Results

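The 28 grapevine (Vitis vinifera) loci described here were expressed in anthers, in undifferentiated callus and in non-embryogenic callus, and were low only in embryogenic callus (EC) among the 4 tissues sampled. They were chosen from 29971 loci on their measured levels. In each of the cultivars Sangiovese (SG) and Cabernet Sauvignon (CS), the mean of 3 libraries had to be 20 FPKM or more in anthers (A), in undifferentiated callus at day 40 of culture (40D) and in non-embryogenic callus (NEC), and the lowest of these 3 means had to be at least 8 times the EC mean. FPKM is a fragment count corrected for the length of the transcript and the size of the library. Because these values chose the loci, the low level in EC is described below and not tested, and the tests are of differences among A, 40D and NEC and between the cultivars. The name first given to the group was that of loci shut off in EC, but no locus was listed at 0 in any library. EC values ran from 0.0730 to 79.4 FPKM, so the loci were low there relative to their other tissues and not at 0. Some EC means passed 20 FPKM. They were those of VIT_08s0007g06040, 36.4 in SG and 29.1 in CS, and VIT_18s0001g09460, 24.8 in SG and 32.2 in CS. In CS that of VIT_01s0146g00280 did too, at 22.5.

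Each of the 8 groups had 3 libraries, which the labels call biological replicates. EC and NEC were calli of the same age, classed under a stereomicroscope at month 4 of culture. The culture began with anthers on a medium with the synthetic auxin 2,4-D (4.5 µM) and the cytokinin BAP (8.9 µM), kept in the dark. After 3 months it was moved to a proliferation medium with the auxins NOA and IAA, BAP and activated charcoal. The 40D callus was taken before that transfer. Anthers came from immature flowers. All callus was thus exposed to 2,4-D and BAP, and EC and NEC also to the second medium. No genotype other than these cultivars was used, SG being labelled highly competent and CS poorly competent for embryogenesis. EC is a class of callus judged by eye, and the share of embryogenic cells in it is not given.

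Somatic embryogenesis is the formation of embryos from body cells without fertilisation. In grapevine it is commonly started from anthers or ovaries, whose cells divide under auxin and cytokinin into callus, a mass of proliferating cells that have lost the organisation of the organ. Some parts of a callus turn into dense clumps of small cells that can form embryos, and the rest stays as loose callus. The bulk libraries cannot tell fewer cells that hold an RNA from less RNA per cell. The files give locus identifiers without names, and 0 of the 29971 matched the reference gene table used here, so no gene name, role or sequence is given for any of them. For the same reason the tissues could not be checked against marker genes.

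The libraries summed to between 729402 and 938765 FPKM, and their read depth is unknown. No pair of libraries was identical. In both A and both EC groups, replicate 3 lay between replicates 1 and 2 at most loci: at 60.8% of loci in SG EC, 65.9% in CS EC, 70.6% in SG A and 60.7% in CS A, among loci with a group mean of 1 FPKM or more. In the 40D and NEC groups the share ran from 32.6% to 39.7%. Among the 28 loci replicate 3 lay between the others for 26 in SG A, 25 in CS A, 24 in SG EC and 19 in CS EC. Whether replicate 3 of these groups is an independent sample was not tested, and results are also given without it in the closing section. The 40D libraries agreed closely, with a median coefficient of variation over the 28 loci of 1.33% in SG and 2.48% in CS, and whether they are independent samples was not tested either.

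The 28 loci together made up 0.0286% ± 0.0226 of the summed FPKM in SG EC, against 0.938% ± 0.0443 in SG A, 0.770% ± 0.00255 in SG 40D and 0.806% ± 0.0142 in SG NEC (SD, n = 3 each). In CS they made up 0.0257% ± 0.000689 in EC, against 0.798% ± 0.0298 in A, 1.45% ± 0.00981 in 40D and 1.08% ± 0.112 in NEC. The EC mean of a locus lay between 0.228 and 36.4 FPKM in SG, with a median of 5.28, and between 0.296 and 32.2 FPKM in CS, with a median of 4.32. It was under 5 FPKM for 14 loci in SG and 18 in CS, and under 1 FPKM for 2 in each. The lowest of the other 3 tissue means exceeded the EC mean by 8.53 to 141 times in SG and by 8.47 to 91.2 times in CS, with medians of 15.3 and 14.5. The ratio was the larger in SG for 15 loci and the larger in CS for 13. At all 28 loci and in both cultivars the highest EC library lay below the lowest of the 9 other libraries. Of all 21568 loci tested 8.51% showed the same, and the rule used this contrast, so nothing is read from the count. The share was 20.7% among the 4182 loci with means of 20 FPKM or more in A, 40D and NEC of both cultivars.

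**Figure D1:**
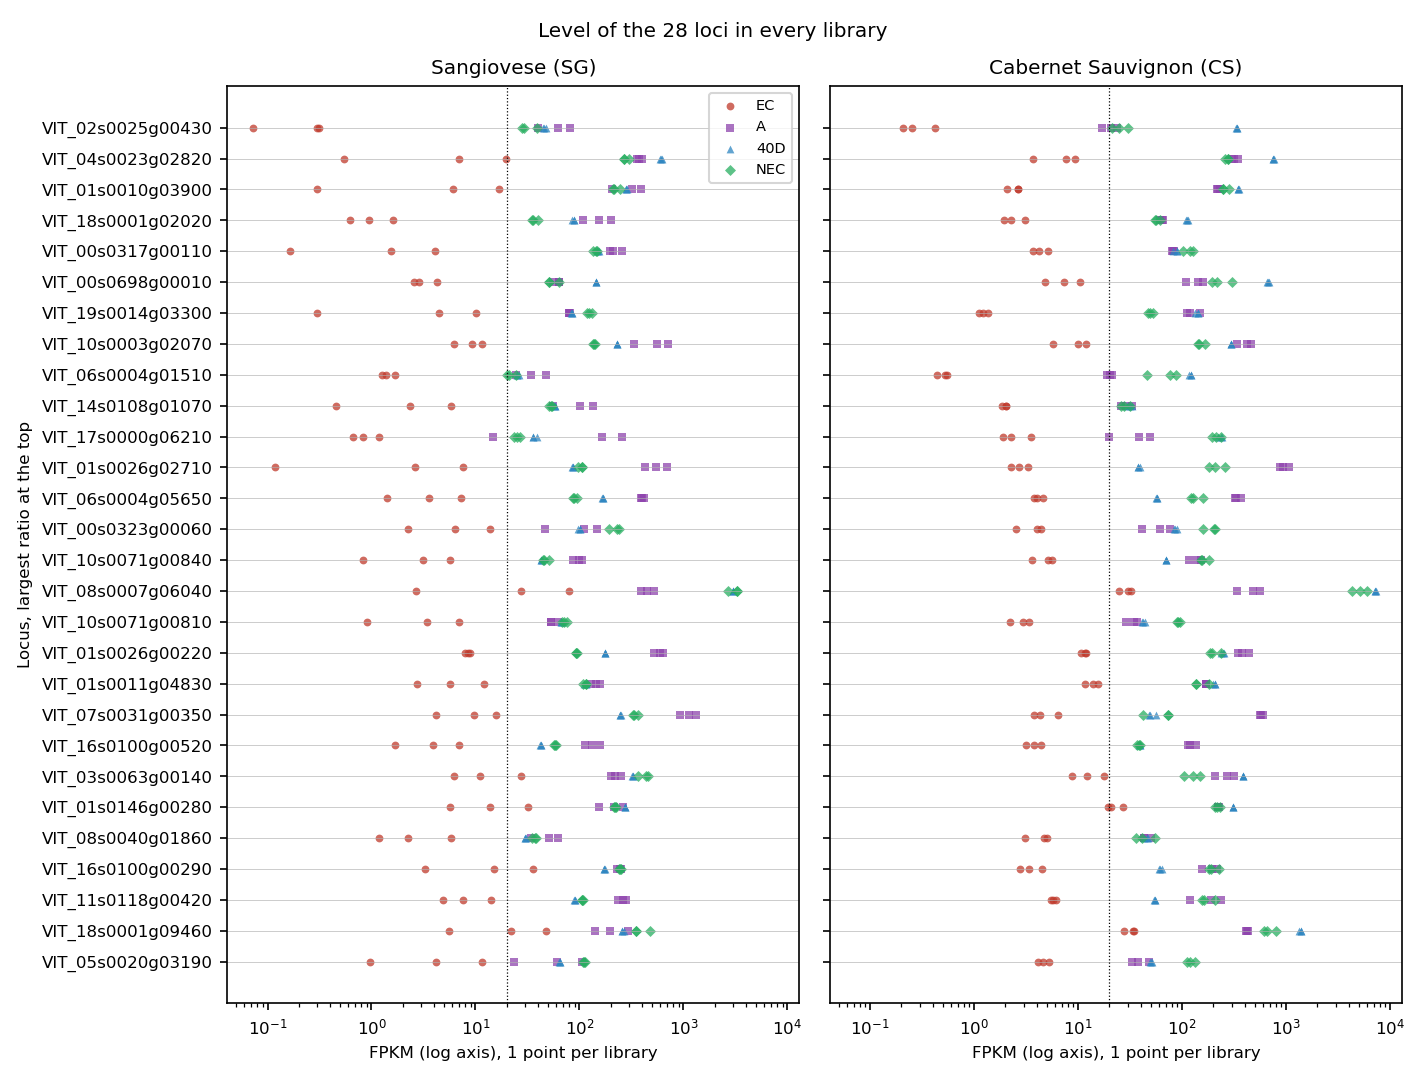
FPKM (log axis) of the 28 loci in every library, 1 point per library, SG on the left and CS on the right, ordered by the smaller of the 2 cultivars' ratios of the lowest other tissue mean to the EC mean. The dotted line marks 20 FPKM, and every EC point lies left of all other points of its row, with the SG EC points spread more widely than the CS EC points.

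At 7 loci the ratio was 16 or more in both cultivars. The largest was at VIT_02s0025g00430, which had 0.310, 0.302 and 0.0730 FPKM in SG EC, against 81.9, 39.8 and 62.1 in SG A, 44.9, 47.4 and 45.8 in SG 40D and 29.1, 39.4 and 27.9 in SG NEC. In CS it had 0.209, 0.424 and 0.254 FPKM in EC, against 17.1, 23.8 and 20.6 in A, 330.1, 342 and 341 in 40D and 21.4, 24.5 and 30.1 in NEC. All 6 EC libraries were under 1 FPKM, and CS 40D stood far above every other group. VIT_04s0023g02820 had 19.6, 0.546 and 6.93 FPKM in SG EC, against means of 378 ± 21.4 in A, 609 ± 14.9 in 40D and 279 ± 17.8 in NEC. Its CS EC libraries had 9.42, 3.72 and 7.73 FPKM, against 320.4 ± 21.1 in A, 761 ± 11.2 in 40D and 270.1 ± 11.02 in NEC. The 3 SG EC libraries of this locus were far apart, while those of CS lay closer together.

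VIT_01s0010g03900 was called in none of the comparisons tested, with 304 ± 92.9, 282 ± 2.75 and 225 ± 19.7 FPKM in A, 40D and NEC of SG, and 225 ± 6.17, 347 ± 5.56 and 259.8 ± 20.04 in those of CS. In SG EC it was at 16.8, 0.296 and 6.07 FPKM, and in CS EC at 2.65, 2.09 and 2.65. The CS EC libraries agreed closely and the SG EC libraries did not. That spread enters the test of every comparison at this locus, so the missing calls do not show a steady level outside EC. In CS the 40D libraries all lay above those of A, with a log2 fold change of 0.63 ± 0.53 (standard error). VIT_18s0001g02020 had 1.59, 0.617 and 0.955 FPKM in SG EC and 1.96, 3.10 and 2.28 in CS EC, against group means between 36.9 in SG NEC and 154 in SG A. VIT_00s0317g00110 had 4.08, 0.166 and 1.53 FPKM in SG EC and 3.67, 5.18 and 4.26 in CS EC, against 81.8 in CS A, its lowest other group, and 221 in SG A, its highest. For VIT_00s0698g00010 the values were 4.27, 2.54 and 2.85 FPKM in SG EC, against at least 55.1 as a mean in the other SG groups, and 4.79, 10.6 and 7.40 in CS EC, against at least 137 in the other CS groups. VIT_19s0014g03300, the last of the 7, had 10.2, 0.296 and 4.49 FPKM in SG EC, against at least 79.8 as a mean in the other SG groups, and 1.12, 1.21 and 1.38 in CS EC, against at least 49.7 in the other CS groups.

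The SG EC libraries differed among themselves at these loci far more than the CS EC libraries did. Replicate 1 was the highest for 27 of the 28 loci, replicate 2 the lowest for 24, and replicate 3 lay between them for 24. Over all loci with a mean of 1 FPKM or more in SG EC, replicate 1 was the highest at 47.5% and replicate 2 the lowest at 45.4%. As a percentage of the SG NEC mean, the median over the 28 loci was 8.14% in SG EC replicate 1, 1.46% in replicate 2 and 4.20% in replicate 3. The CS EC libraries gave 3.40%, 3.46% and 3.34% of the CS NEC mean. Summed over the loci, the level was 416 FPKM in SG EC replicate 1, 66.9 in replicate 2 and 186 in replicate 3, and 205, 203 and 212 FPKM in the CS EC libraries. The SD of log2(FPKM + 1) over the SG EC libraries had a median of 0.97 at the 28 loci, and of 0.08 at the 4182 loci with 20 FPKM or more in A, 40D and NEC. In CS EC the medians were 0.20 and 0.08. The 4182 loci were not chosen for a low EC level, and no loci matched on the EC level were compared.

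**Figure D2:**
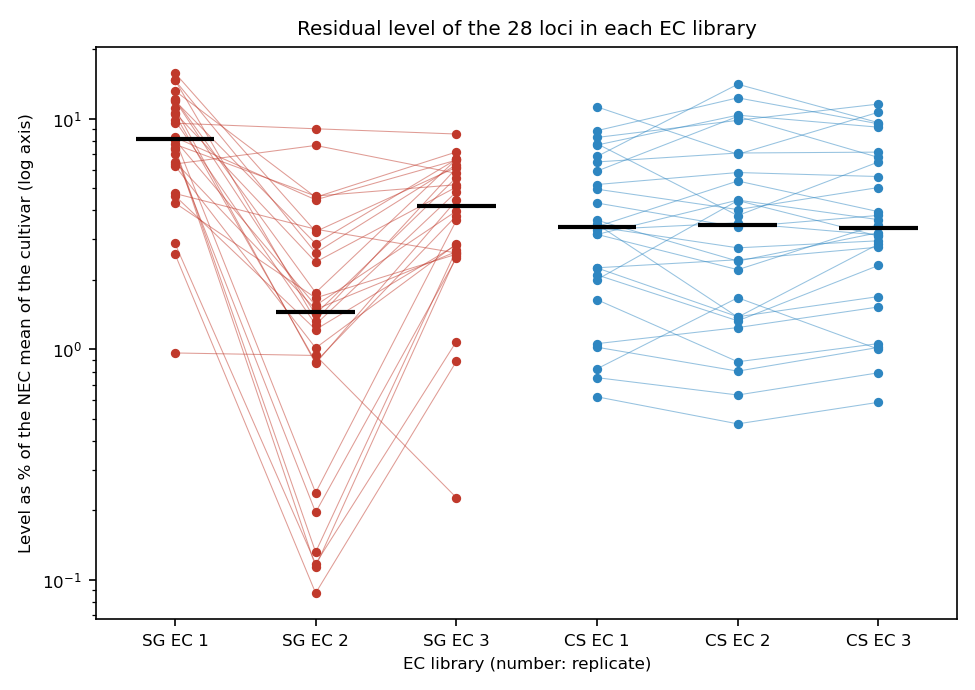
Level of each of the 28 loci in the 6 EC libraries, as a percentage of the NEC mean of the same cultivar (log axis), with 1 point per locus, thin lines joining a locus within a cultivar and black bars at the medians. The SG medians are 8.14%, 1.46% and 4.20% in replicates 1, 2 and 3, and the CS medians lie between 3.34% and 3.46%.

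The gap between SG EC replicates 1 and 2 was not the same at every locus. Replicate 1 over replicate 2 had a median of 5.42, with a lowest value of 0.831 and a highest of 64.9. At the high end, VIT_01s0026g02710 had 7.60, 0.117 and 2.60 FPKM in the 3 SG EC libraries, and VIT_08s0007g06040 had 79.4, 2.68 and 27.1. At the low end, VIT_01s0026g00220 had 8.86, 8.38 and 7.96 FPKM and VIT_06s0004g01510 had 1.38, 1.67 and 1.26. The same EC libraries were thus far apart at some of the loci and close at others. At 169 loci with the opposite pattern, 20 FPKM or more in EC and at least 8 times every other tissue mean in both cultivars, the summed level was 44633 FPKM in SG EC replicate 1, 55480.5 in replicate 2 and 52091 in replicate 3. Of the SG EC libraries, replicate 1 thus had the highest sum of the 28 loci and the lowest of the 169. In CS EC the 169 loci summed to 37531, 48629 and 41791.5 FPKM in replicates 1, 2 and 3, where the 28 summed to 205, 203 and 212. Both lists were chosen on their EC values. In NEC these 169 loci summed to 1540.1 FPKM in SG replicate 1, 3702 in replicate 2 and 1569.8 in replicate 3. The part that callus of the other type played in these differences was not tested. Without SG EC replicate 1 the ratio of the lowest other tissue to SG EC had a median of 25.8. It was then the larger in SG for 24 of the 28 loci, against 15 with all libraries. Replicate 1 was the highest SG EC library at 27 loci, so leaving it out had to raise the SG ratio there. The ratio without replicate 2, the lowest at 24 loci, is not given, and no order between the cultivars is read from the change.

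Outside EC the loci did not share one pattern. In SG, 17 had their highest mean in A, 3 in 40D and 8 in NEC, and in CS 8 had it in A, 14 in 40D and 6 in NEC. The highest tissue was the same in both cultivars for 15 loci: 8 with A, 3 with 40D and 4 with NEC. This order goes by the means alone, some of which were near equal. The highest of the 3 means exceeded the lowest by a median of 2.05 times in SG and 3.07 times in CS, and by 6.79 and 25.0 times at most.

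Of the 8 loci that were highest in anthers in both cultivars, VIT_07s0031g00350 had the highest anther mean in SG and VIT_01s0026g02710 the highest in CS. VIT_01s0026g02710 had 7.60, 0.117 and 2.60 FPKM in SG EC, against 427, 689 and 549 in A, 86.3, 86.3 and 84.4 in 40D and 106, 96.4 and 105 in NEC. In CS it had 2.29, 2.69 and 3.31 FPKM in EC, against 1073, 868 and 931 in A, 37.8, 39.5 and 37.7 in 40D and 180.3, 261 and 209.6 in NEC. Every anther library lay above every callus library of its cultivar. VIT_07s0031g00350 had 15.9, 4.17 and 9.71 FPKM in SG EC, against 919.7, 1309 and 1125 in A, 247, 254 and 245 in 40D and 330.2, 367 and 331 in NEC. For CS the values were 3.75, 6.47 and 4.29 FPKM in EC, against 566, 597 and 573 in A, 48.8, 48.4 and 55.7 in 40D and 42.5, 72.8 and 74.2 in NEC. Its 40D and NEC libraries in SG lay far above those in CS, its anther libraries did so by less, and its EC libraries overlapped.

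Another pair of anther-high loci stepped down through the tissues. VIT_01s0026g00220 had 8.40 ± 0.454 FPKM in SG EC, against 586 ± 56.6, 176 ± 0.930 and 92.6 ± 1.33 in A, 40D and NEC, and 11.5 ± 0.691 in CS EC, against 387 ± 46.99, 247 ± 8.07 and 206 ± 28.3. VIT_10s0003g02070 had 8.94 ± 2.68 FPKM in SG EC, against 535 ± 194, 230.0 ± 1.75 and 138 ± 3.82 in A, 40D and NEC, and 9.21 ± 3.11 in CS EC, against 405 ± 60.4, 295 ± 2.04 and 153 ± 13.2. Their means stood in the order A, 40D, NEC and EC, high to low, in each cultivar. VIT_06s0004g05650 was at 4.10 ± 2.99 FPKM in SG EC, against 405 ± 10.8, 167 ± 0.606 and 90.3 ± 4.26, and at 4.14 ± 0.447 in CS EC, against 341 ± 25.6, 56.8 ± 0.796 and 136 ± 21.1. Its lowest tissue outside EC was thus NEC in SG and 40D in CS. The other 3 had lower anther levels: VIT_11s0118g00420 with anther means of 259 FPKM in SG and 182 in CS, VIT_16s0100g00520 with 133 and 124, and VIT_08s0040g01860 with 49.2 and 45.5. Their EC means were 8.87 and 5.82 FPKM, 4.18 and 3.81, and 3.09 and 4.27 in SG and CS. In CS the A and 40D means of VIT_08s0040g01860 were near equal, at 45.5 and 45.4 FPKM.

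The 3 loci highest in 40D callus in both cultivars were VIT_00s0698g00010, VIT_01s0146g00280 and VIT_04s0023g02820. VIT_00s0698g00010 was at 63.8, 55.7 and 63.1 FPKM in SG A, 145, 146 and 146 in SG 40D and 51.1, 63.6 and 50.5 in SG NEC. In CS it was at 110.0, 159.6 and 142 in A, 654, 685 and 671 in 40D and 219, 194 and 303 in NEC. The 40D libraries stood above the others in each cultivar and those of CS far above those of SG. VIT_01s0146g00280 had group means outside EC between 210.0 FPKM in SG A and 307 in CS 40D, with SG A libraries at 262, 154 and 213. It was called in none of the comparisons tested, which does not show a steady level outside EC. This locus had one of the higher EC levels, with 32.2, 5.75 and 13.9 FPKM in SG and 19.5, 27.1 and 20.9 in CS.

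NEC held the highest mean in both cultivars at 4 loci. VIT_00s0323g00060 had 13.8, 2.23 and 6.31 FPKM in SG EC, against 149, 46.2 and 111 in A, 96.5, 101 and 101 in 40D and 191, 242 and 228 in NEC. In CS it had 4.01, 2.54 and 4.41 FPKM in EC, against 59.97 ± 18.3 in A, 86.3 ± 3.15 in 40D and 191 ± 27.5 in NEC. Its SG anther libraries were spread over a wider range than its callus libraries. VIT_16s0100g00290 was at 36.1, 3.26 and 14.9 FPKM in SG EC, against 173 to 245 as means of the other SG groups, and at 4.50, 2.76 and 3.38 in CS EC, against 62.2 to 199.6. VIT_05s0020g03190 had EC means of 5.57 ± 5.43 FPKM in SG and 4.66 ± 0.561 in CS, against NEC means of 110.3 ± 2.42 and 121 ± 12.2. VIT_10s0071g00810 had 3.79 ± 3.07 FPKM in SG EC and 2.85 ± 0.570 in CS EC, against 71.4 ± 4.44 and 92.3 ± 3.05 in NEC. The SG NEC and SG A libraries of VIT_16s0100g00290 overlapped, and NEC was not tested against A at any locus.

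At the other 13 loci the tissue with the highest mean differed between the cultivars. Some of these orders rest on near-equal means. In SG the NEC and 40D libraries of VIT_08s0007g06040 overlapped, with a log2 fold change of 0.02 that was not called. In CS the A, 40D and NEC means of VIT_14s0108g01070 ran only from 28.3 to 31.5 FPKM. VIT_08s0007g06040 had the highest level of the 28 in 40D and NEC of both cultivars, with 79.4, 2.68 and 27.1 FPKM in SG EC, against 393, 518 and 442 in A, 3012, 3020.3 and 2988 in 40D and 3267, 2681 and 3240.2 in NEC. In CS the values were 32.2, 24.6 and 30.5 FPKM in EC, against 336, 559.9 and 478 in A, 7338, 7219.6 and 7229 in 40D and 4329, 5193 and 6033 in NEC. Anthers were the lowest of its 3 other tissues in each cultivar, and both callus types far exceeded them. Without this locus the other 27 summed to 186 ± 138 FPKM in SG EC, against 6528 ± 253 in A, 4016 ± 13.9 in 40D and 3799.8 ± 124 in NEC. In CS the sums were 178 ± 4.13 FPKM in EC, against 5619 ± 90.5 in A, 6252 ± 47.2 in 40D and 4319 ± 213 in NEC.

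VIT_17s0000g06210 was at 1.19, 0.835 and 0.659 FPKM in SG EC, against 256, 14.8 and 164 in A, 35.7, 39.4 and 35.6 in 40D and 23.5, 24.96 and 27.1 in NEC. In CS it was at 3.52, 1.90 and 2.27 FPKM in EC, against 19.8, 49.5 and 38.6 in A, 239, 243 and 223 in 40D and 235, 196 and 213 in NEC. SG anther replicate 2 lay below all SG 40D and NEC libraries while replicates 1 and 3 lay far above them, so the SG anther mean rests on 2 libraries. VIT_18s0001g09460 had 47.2, 5.56 and 21.7 FPKM in SG EC, against 212 ± 77.8, 262 ± 7.40 and 391 ± 76.5 in A, 40D and NEC, and 34.1, 27.8 and 34.7 in CS EC, against 423 ± 9.43, 1372 ± 43.1 and 689 ± 93.9. VIT_06s0004g01510 had 1.38, 1.67 and 1.26 FPKM in SG EC, against 24.3, 47.3 and 34.3 in A, 26.04, 24.9 and 25.1 in 40D and 20.8, 24.3 and 20.2 in NEC. Its CS libraries had 0.530, 0.445 and 0.556 FPKM in EC, against 18.95, 21.1 and 20.2 in A, 117, 122 and 122 in 40D and 45.96, 77.3 and 87.7 in NEC. A was its highest tissue in SG and 40D in CS.

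Among the rest of these 13, VIT_03s0063g00140 had means of 14.9 ± 11.04 FPKM in SG EC and 12.9 ± 4.63 in CS EC, against 420.3 in SG NEC, its highest, and 126 in CS NEC, its lowest other group. VIT_01s0011g04830 had 6.84 ± 4.77 and 13.8 ± 2.03 FPKM in EC of SG and CS, and between 114 and 204 in the other groups. VIT_10s0071g00840 had 3.23 ± 2.44 and 4.81 ± 1.07 FPKM in EC of SG and CS, and between 43.1 in SG 40D and 163 in CS NEC elsewhere. VIT_14s0108g01070, one of the weaker loci, had 2.89 ± 2.75 and 1.96 ± 0.105 FPKM in EC of SG and CS, and between 28.3 in CS NEC and 96.8 in SG A elsewhere. The remaining 5 are among those already given.

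**Figure D3:**
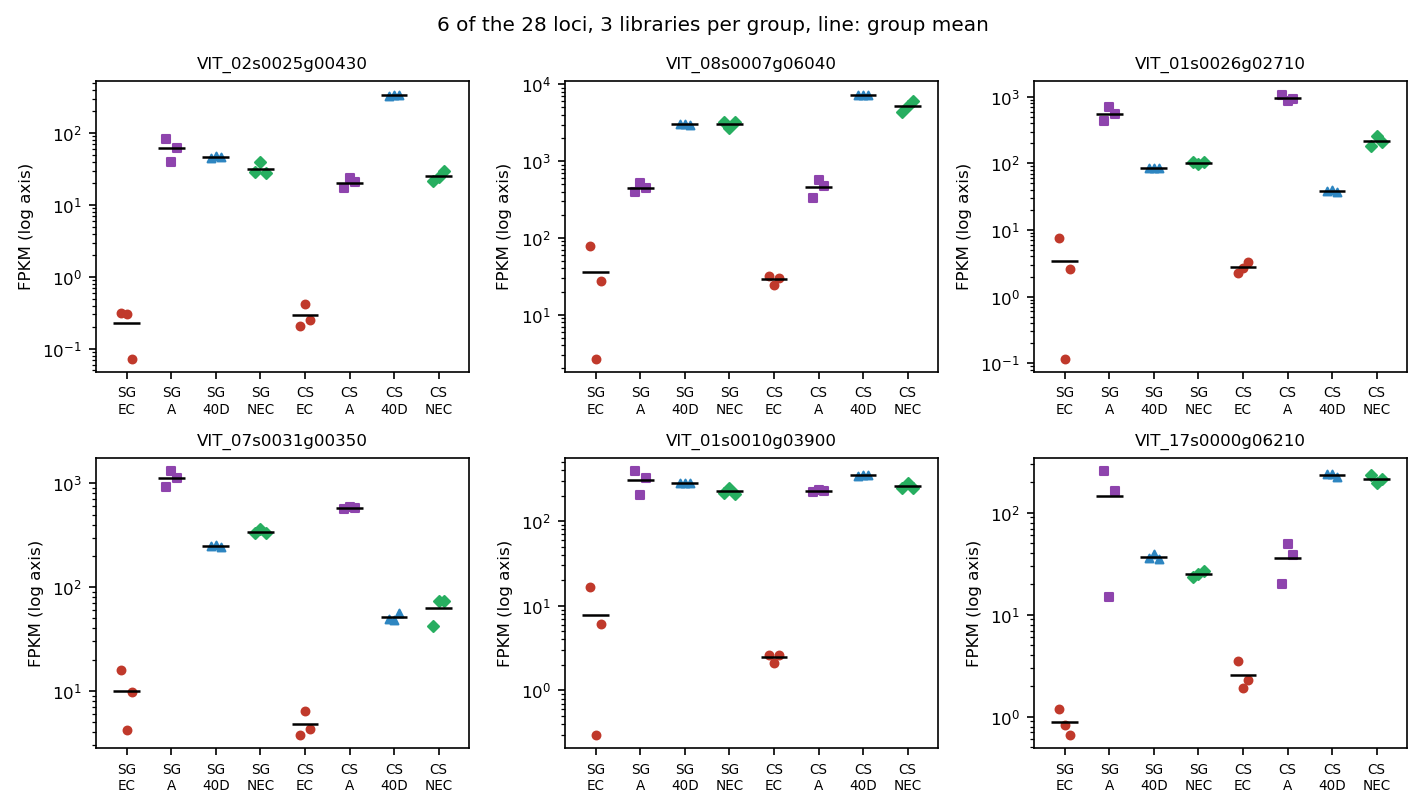
FPKM (log axis) of 6 of the 28 loci in the 8 groups, SG then CS, with 3 libraries per group as points and the group mean as a line. The EC points lie below all others in every panel, and the order of A, 40D and NEC differs between loci and between cultivars, with VIT_02s0025g00430 at 46.04 FPKM in SG 40D and 337 in CS 40D.

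Callus at day 40 was compared with anthers, as groups without pairing of samples. In the fit on all 24 libraries more of the 28 fell than rose in SG, and in CS as many rose as fell. Of the 28 loci, 2 rose and 10 fell in SG (7.14% and 35.7%), and 8 rose and 8 fell in CS (28.6% each), by limma's moderated test with an adjusted p under 0.05 over 21568 loci. Over all loci tested 36.8% rose and 39.9% fell in SG, and 35.6% rose and 43% fell in CS. The median log2 fold change of the 28 was -0.45 in SG and 0.30 in CS, and -0.03 and -0.08 over all loci. At 7 loci the fall was called in both cultivars and at 2 the rise was (25% and 7.14%), beside 33.3% and 27.5% of all loci. The share called in either direction was lower than that of the 4182 loci with 20 FPKM or more in A, 40D and NEC, of which 80% were called in SG and 82.8% in CS, but their spread differed too. Over all 24 libraries the residual SD of log2(FPKM + 1) had a median of 0.39 at the 28 loci and of 0.10 at those 4182. Without the EC libraries it was 0.19 and 0.09. With the 18 A, 40D and NEC libraries alone in the fit, 6 rose and 14 fell in SG, and 13 rose and 9 fell in CS. The even split in CS thus depended on the EC libraries being in the fit. In the fit on 18 libraries 37.2% of all loci rose and 40.2% fell in SG, beside 21.4% and 50% of the 28. In CS 36.1% rose and 43.4% fell, beside 46.4% and 32.1% of the 28. Whether the 28 differed from all loci in this fit was not tested.

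VIT_01s0026g02710 and VIT_07s0031g00350 fell the most in both cultivars. VIT_01s0026g02710 averaged 85.7 ± 1.09 FPKM in SG 40D and 555 ± 131 in SG A (SD, 3 libraries each), a log2 fold change of -2.66 ± 0.42 (standard error), and in CS the log2 fold change was -4.60 ± 0.42. For VIT_07s0031g00350 it was -2.15 in SG and -3.48 in CS, each ± 0.29. The limma adjusted p of these 4 values ran from 1.3e-09 to 1.2e-05, and in each the 3 libraries of 40D lay below those of A. VIT_06s0004g05650, VIT_11s0118g00420, VIT_16s0100g00520, VIT_10s0071g00840 and VIT_01s0026g00220 fell in both as well, with log2 fold changes between -1.72 and -1.16 in SG and between -2.56 and -0.64 in CS. The fall of VIT_10s0071g00840 in CS was not called with each 40D group taken as 1 sample.

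Rises in both cultivars were seen at VIT_08s0007g06040 and VIT_00s0698g00010. VIT_08s0007g06040 averaged 3007 ± 16.8 FPKM in SG 40D and 451 ± 62.7 in SG A, a log2 fold change of 2.74 ± 0.63 (limma adjusted p = 5.9e-04), and 4.02 ± 0.63 in CS (adjusted p = 8.7e-06). VIT_00s0698g00010 rose by 1.25 in SG and 2.30 in CS, each ± 0.20. In CS, VIT_02s0025g00430 also rose, by 3.99 ± 0.19 (limma adjusted p = 2.9e-13), as did VIT_17s0000g06210 and VIT_06s0004g01510, and none of the 3 was called in SG, where the log2 fold changes were -0.35, -1.21 and -0.41. VIT_18s0001g02020 was called in opposite directions, -0.76 in SG and 0.81 in CS, each ± 0.17. Of the 16 calls in CS, that of VIT_04s0023g02820 was lost without any single CS A or CS 40D library, and of the 10 falls in SG that of VIT_08s0040g01860 was lost without SG A replicate 1 or 3 or any SG 40D library.

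NEC was compared with the earlier 40D callus. In this fit 7 changes were called in SG and 18 in CS. In SG 1 locus rose and 6 fell (3.57% and 21.4%), where 25.7% of all loci rose and 21.8% fell. In CS 8 rose and 10 fell (28.6% and 35.7%), where 32% of all loci rose and 31.2% fell. The medians were 0.01 in SG and -0.21 in CS on the log2 scale, and 0.03 and 0.01 over all loci. With the 18 A, 40D and NEC libraries alone in the fit, 6 rose and 8 fell in SG, and 9 rose and 14 fell in CS. With only the compared groups in the fit, 11 rose and 12 fell in SG, so the count in SG depends on which libraries enter the fit. With 18 libraries 26.7% of all loci rose and 22.8% fell in SG, beside 21.4% and 28.6% of these loci. In CS 32.5% rose and 32% fell, beside 32.1% and 50%. With only the compared groups 32.4% rose and 27.1% fell in SG, beside 39.3% and 42.9%. Whether these loci differed from all loci in these 2 other fits was not tested. The same direction was called in both cultivars for 1 rise and 5 falls (3.57% and 17.9%), beside 15.6% and 15% of all loci. The single rise in SG, that of VIT_00s0323g00060, was lost without any one of the SG 40D libraries and without SG NEC replicate 2 or 3. The comparisons with 40D in this and the preceding paragraphs share the 40D libraries.

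In CS the largest rise from 40D to NEC was that of VIT_01s0026g02710, which averaged 217 ± 40.7 FPKM in NEC and 38.3 ± 1.01 in 40D (log2 fold change 2.45 ± 0.42, adjusted p = 4.6e-05). VIT_16s0100g00290, VIT_11s0118g00420 and VIT_06s0004g05650 rose by 1.66, 1.65 and 1.24. VIT_02s0025g00430 fell by 3.69 ± 0.19 in CS, with 25.4 ± 4.41 FPKM in NEC and 337 ± 6.45 in 40D, so that day 40 stood alone among its CS tissues. In SG it was at 32.1 ± 6.33 FPKM in NEC and 46.04 ± 1.24 in 40D, and that fall was lost without any one of 5 of the 6 libraries compared. Falls called in both cultivars were those of VIT_00s0698g00010, -1.39 in SG and -1.51 in CS, VIT_18s0001g02020, -1.23 and -0.96, VIT_10s0003g02070, -0.73 and -0.95, VIT_01s0026g00220 and VIT_02s0025g00430. The fall of VIT_01s0026g00220 in CS was lost without CS NEC replicate 1 or 3. VIT_06s0004g05650 fell in SG, by 0.88 ± 0.25, and rose in CS.

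**Figure D4:**
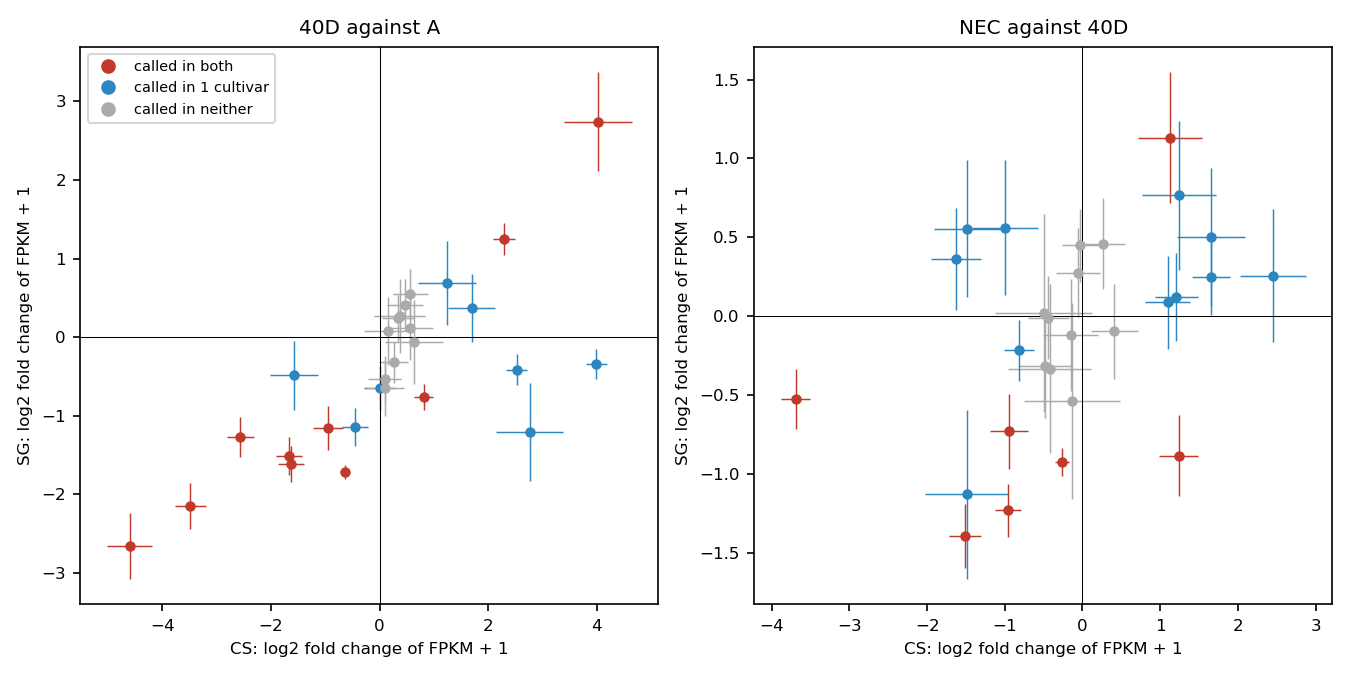
Log2 fold change of FPKM + 1 of the 28 loci, SG on the vertical and CS on the horizontal axis, for 40D against A (left) and NEC against 40D (right), with standard errors as bars. Red points passed an adjusted p under 0.05 in both cultivars, blue in 1 and grey in neither: in 40D against A 7 fell and 2 rose in both and 1 went opposite ways, and in NEC against 40D 5 fell and 1 rose in both and 1 went opposite ways.

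Sangiovese and Cabernet Sauvignon were then compared within each tissue. A difference was called for 19 of the 28 loci in at least 1 of A, 40D and NEC (67.9%), beside 84.9% of all loci. Among anthers, SG exceeded CS at 7 loci and fell short of it at 1 (25% and 3.57%), and over all loci the shares were 20% and 23.5%. For 40D callus the counts were 7 and 8 (25% and 28.6%), beside 30.8% and 26.1% of all loci. For NEC they were 5 and 8 (17.9% and 28.6%), beside 31.7% and 21.7%. The median log2 difference of the 28 was 0.36 in A, -0.31 in 40D and -0.22 in NEC, and between -0.01 and 0.06 over all loci. The 7 higher loci in 40D became 4 when any 1 of the 6 libraries was left out, and the 5 higher loci in NEC became 3. With the 18 A, 40D and NEC libraries alone in the fit, 12 were higher and 6 lower in A, 8 and 13 in 40D, and 7 and 13 in NEC. Of all loci 21.1% were higher and 24.7% lower in A in that fit. The shares were 31.6% and 26.9% in 40D, and 32.6% and 22.5% in NEC. For the 28 they were 42.9% and 21.4% in A, 28.6% and 46.4% in 40D, and 25% and 46.4% in NEC. With 1 library left out, 27.8% to 28.4% of all loci were higher in SG 40D and 28.3% to 30% in SG NEC. Whether the 28 differed from all loci in these other fits was not tested.

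VIT_00s0698g00010 was lower in SG in all 4 tissues, with log2 differences of -1.15 in A, -2.20 in 40D and -2.08 in NEC, each ± 0.20. VIT_07s0031g00350 was higher in SG in A (0.93), 40D (2.27) and NEC (2.46), each ± 0.29, and the call in A was lost with replicate 3 of every A and EC group left out. VIT_14s0108g01070 was higher in SG in the same 3 tissues, with 1.61 in A, but its calls in 40D and NEC were each lost without any one of the libraries compared. Over A, 40D and NEC the called differences pointed in opposite directions at 6 loci (21.4%), beside 16.8% of all loci, and over all 4 tissues at 7 (25%), beside 27.4%. Among the 6, VIT_01s0026g02710, rests on a 40D call lost without any one of the libraries compared and a NEC call lost without any one of 5 of the 6. VIT_02s0025g00430 was higher in SG anthers, at 61.3 ± 21.1 FPKM in SG and 20.5 ± 3.37 in CS (log2 difference 1.49 ± 0.19, adjusted p = 4.0e-06), and lower in SG 40D callus, at -2.85 ± 0.19 (adjusted p = 3.2e-10). VIT_06s0004g01510, VIT_18s0001g02020 and VIT_01s0026g00220 were likewise higher in SG anthers, by 0.74, 1.22 and 0.60, and lower in SG NEC, where the log2 differences were -1.60, -0.63 and -1.14. VIT_17s0000g06210 was lower in SG in 40D and NEC, at -2.64 and -3.04, each ± 0.62, and not called in anthers, where SG had 256, 14.8 and 164 FPKM and CS 19.8, 49.5 and 38.6. VIT_03s0063g00140 differed in NEC, at 452, 369 and 441 FPKM in SG and 127, 104 and 149 in CS (log2 difference 1.74 ± 0.32), and was not called in A or 40D.

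Whether a change between tissues differed between the cultivars was tested as an interaction, SG minus CS. For 40D against A it was called positive at 3 loci and negative at 6 (10.7% and 21.4%), beside 28.3% and 21.3% of all loci. For NEC against 40D it was called positive at 4 and negative at 5 (14.3% and 17.9%), beside 22.2% and 20.3%. VIT_02s0025g00430 had the largest value of either, and the others are listed in the closing section.

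In EC, SG exceeded CS at 3 loci and fell short of it at 5 (10.7% and 17.9%), beside 19.3% and 32.1% of all loci. The rule caps the EC level in each cultivar but sets no order between them. These counts turned on single libraries: without SG EC replicate 1, 13 loci were lower in SG, and without SG EC replicate 2, 10 were higher. Of all loci 32.8% were lower without SG EC replicate 1, beside 46.4% of the 28. Without SG EC replicate 2, 16.9% of all loci were higher, beside 35.7% of the 28. No order between the cultivars is read from these 2 counts, which depend on the library left out. The fit took a common spread over all groups, with a median SD of 0.39 at the 28 loci. In SG EC alone it was 0.97, so the standard errors can be too small here. The calls at VIT_00s0317g00110, VIT_01s0011g04830, VIT_07s0031g00350 and VIT_16s0100g00290 were lost with only the compared groups in the fit. The libraries of the cultivars did not overlap at 4 of the 8 called loci, which is 14.3% of the 28, and 46% of all loci were called without overlap. VIT_00s0698g00010 had 4.27, 2.54 and 2.85 FPKM in SG EC and 4.79, 10.6 and 7.40 in CS EC, a log2 difference of -0.99 ± 0.20. VIT_18s0001g02020 and VIT_01s0026g00220 were lower in SG EC, with log2 differences of -0.76 and -0.41. VIT_06s0004g01510 was higher in SG EC, at 1.38, 1.67 and 1.26 FPKM, against 0.530, 0.445 and 0.556 in CS EC (log2 difference 0.69 ± 0.19). A fold change between such low levels is understated on the log2(FPKM + 1) scale.

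**Figure D5:**
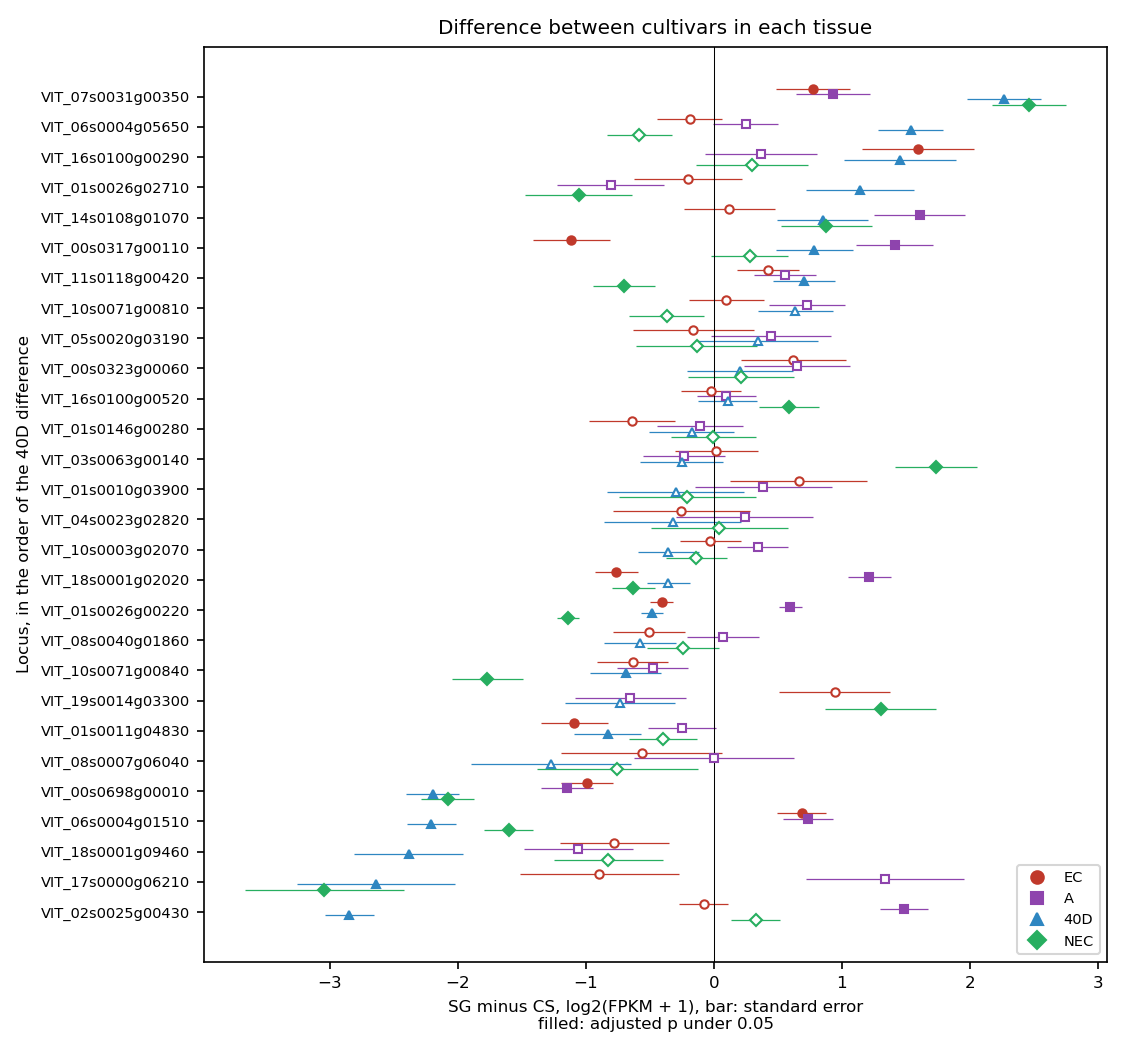
Difference between SG and CS (SG minus CS, log2 of FPKM + 1) of each of the 28 loci in EC, A, 40D and NEC, with standard errors as bars and filled symbols for an adjusted p under 0.05. Differences ran from -3.04 for VIT_17s0000g06210 to 2.46 for VIT_07s0031g00350, both in NEC, and several loci have symbols on both sides of 0.

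The loci were scattered over the genome. In the naming scheme of grapevine loci the digits after VIT stand for the chromosome and those after s for the scaffold. By these, 25 of the 28 lay on 15 chromosomes and 3 on sequence not assigned to one. Chromosome 1 held 5, chromosome 10 held 3, and chromosomes 6, 8, 16 and 18 held 2 each. Of the 28, 10 shared a scaffold with another, and only VIT_10s0071g00810 and VIT_10s0071g00840 were near each other, with 1 listed locus between them, VIT_10s0071g00830, at 0 FPKM in every library. Both loci of the pair rose in NEC against 40D in CS, by 1.10 and 1.21 on the log2 scale, while in SG the highest mean was in NEC at the first and in A at the second. Whether reads are shared between similar copies could not be told from these files. Of 106 loci within 2 places of a member on the same scaffold, 92 passed the filter. In EC against NEC 43 of the 92 rose and 34 fell in SG (46.7% and 37%), where 46.1% of all loci rose and 32.2% fell. In CS 47 rose and 29 fell (51.1% and 31.5%), where 51.4% of all loci rose and 27.9% fell. Shares of the neighbours were thus near those of all loci. For the 2 counts that follow no share of all loci was worked out, and nothing is read from them. Of the 106, 14 had their lowest mean in EC in both cultivars. At 5 the lowest other mean was at least 2 times the EC mean in both. Chosen after their values were seen, these were VIT_06s0004g01500 with a smaller ratio of 37.6 and VIT_03s0063g00150 with 12.7, whose means were all under 4 FPKM, VIT_19s0014g03290 with 4.05, VIT_01s0010g03880 with 3.62 and VIT_08s0007g06030 with 2.13, the last also at low levels. VIT_19s0014g03290, next to VIT_19s0014g03300, was at 4.28 FPKM in SG EC, against 79.6, 39.9 and 62.4 in SG A, 40D and NEC, and 5.92 in CS EC, against 78.5, 24.0 and 77.6 in CS A, 40D and NEC.

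The thresholds lay within a continuous range. Just inside the ratio of 8 were VIT_05s0020g03190 with a smaller ratio of 8.47, VIT_18s0001g09460 with 8.53 and VIT_11s0118g00420 with 9.38. Just outside it were VIT_08s0007g07320 with 7.89, VIT_09s0002g01320 with 7.85 and VIT_04s0044g00020 with 7.72. Just inside the level of 20 FPKM were VIT_06s0004g01510 with a lowest mean of 20.1 FPKM, VIT_02s0025g00430 with 20.5 and VIT_17s0000g06210 with 25.2, and just outside it VIT_08s0007g07880 with 19.2, VIT_00s1566g00010 with 18.8 and VIT_06s0004g07920 with 18.7. The same rule with another tissue as the low one took 26 loci for A, 0 for 40D and 5 for NEC, beside the 28 for EC. With equal library sums it took 33 for EC and 22 for A, and with median-of-ratios scaling 36 for EC and 26 for A.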

How the data were processed

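The authors deposited FPKM values for 29971 loci in 24 libraries, and nothing else from them was used. Per the submitters' processing notes, CASAVA 1.8.2, TopHat2 2.0.9 and Cufflinks 2.1.1 were run. The genome build was not given in the sources used here, nor was the annotation. Per the labels' protocols, the libraries were non-directional and made from 2.5 µg of total RNA each. A locus and an antisense partner therefore cannot be told apart, and near-identical copies may share reads. FPKM keep no read depth, so no counting error is given.

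The 28 loci and the lists were chosen with earlier results of these data known, and all 28 are named. The test took in the 21568 loci, all 28 among them, that reached 1 FPKM in 3 or more libraries. Values were put on a log2(FPKM + 1) scale and fitted with limma 3.58.1 in R 4.3.3. The fit had 8 group means over all 24 libraries and 16 residual degrees of freedom, and p-values were adjusted by Benjamini and Hochberg over all 21568 loci. A locus is said to be called, or to have risen or fallen, where the two-sided adjusted p was under 0.05. On this scale the change of a low level is understated. Nothing in the labels says that the replicates came from separate plants or cultures, so p-values measure the spread between these libraries, which may be technical. The method was tested on simulated data in which each locus had the same spread in all groups. At the 28 loci the spread was larger in SG EC than in CS EC, so the simulation does not show how many changes are missed there.

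Alternatives were a pseudocount of 0.1, no filter and a filter at a mean of 5 FPKM, 2 other scalings, the compared groups fitted alone, a replicate block, a log2 fold change of 1 or more, each 40D group as 1 sample (12 residual degrees of freedom), and each library left out. Leaving out SG EC replicate 1 with SG NEC replicate 2, leaving out replicate 3 of every A and EC group, and the fit on the 18 A, 40D and NEC libraries were chosen after seeing the data.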

Additional observations from a re-analysis of the deposited data

Results flagged for a closer look

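The loci below were picked out because the change between 2 tissues differed between the cultivars, by limma's test of the interaction, SG minus CS, with an adjusted p under 0.05 over 21568 loci. Values are log2 differences of differences, with the share called over all loci beside each count. Both contrasts use the same 40D libraries, so a high or low 40D mean of one cultivar moves the values of both with opposite signs.

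For the change from A to 40D, the value was called positive at 3 of the 28 loci and negative at 6, beside 28.3% and 21.3% of all loci. VIT_02s0025g00430 stood at -4.33 ± 0.27 (standard error, limma adjusted p = 3.5e-10), with 46.04 ± 1.24 and 61.3 ± 21.1 FPKM in SG 40D and A, and 337 ± 6.45 and 20.5 ± 3.37 in CS 40D and A. VIT_17s0000g06210 stood at -3.97 ± 0.88, though SG anther replicate 2, at 14.8 FPKM, lay far from replicates 1 and 3, at 256 and 164. VIT_06s0004g01510 had -2.94, VIT_18s0001g02020 had -1.57, VIT_01s0026g00220 had -1.08 and VIT_00s0698g00010 had -1.05. Of these, VIT_18s0001g02020 fell in SG and rose in CS, VIT_01s0026g00220 fell in both, and VIT_00s0698g00010 rose in both. The 3 positive values belonged to loci that fell less in SG: VIT_01s0026g02710 with 1.95, VIT_07s0031g00350 with 1.33 and VIT_06s0004g05650 with 1.29. With each 40D group as 1 sample these 3 and VIT_00s0698g00010 were not called.

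For the change from 40D to NEC, the value was called positive at 4 loci and negative at 5, beside 22.2% and 20.3% of all loci. VIT_02s0025g00430 stood at 3.17 ± 0.27. VIT_19s0014g03300 had 2.04, VIT_03s0063g00140 had 1.99 and VIT_18s0001g09460 had 1.56. The negative values were -2.20 at VIT_01s0026g02710, -2.12 at VIT_06s0004g05650, -1.41 at VIT_11s0118g00420, -1.08 at VIT_10s0071g00840 and -0.66 at VIT_01s0026g00220. VIT_06s0004g05650 fell in SG, to 90.3 ± 4.26 FPKM in NEC, against 167 ± 0.606 in 40D, and rose in CS, to 136 ± 21.1 in NEC, against 56.8 ± 0.796 in 40D. The call at VIT_18s0001g09460 was lost without any one of the 12 libraries compared, and that at VIT_10s0071g00840 without any one of 9 of the 12 libraries compared. With each 40D group as 1 sample, 1 positive and 2 negative values passed the threshold.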

How the results depend on the processing

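As reported, 115 differences of single loci were called. Of these 55 were called in every setting run and 0 changed direction in any, and 19 were lost when 1 or another library was left out. With each 40D group taken as 1 sample 40 were lost, with a log2 fold change of 1 or more 33, with a pseudocount of 0.1 20, and with replicate 3 of every A and EC group out 18. Read depth is unknown, so its limit cannot be given. Counts below are loci higher, then lower, unless 1 direction is named. Where no share of all loci stands beside a count, the count shows only how that result depends on the setting.

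With the compared groups fitted alone, 40D against A had 14 higher in CS and 5 higher in SG. These were 50% and 17.9%, beside 37.5% and 35.2% of all loci. NEC against 40D in SG had 11 and 12 (39.3% and 42.9%, beside 32.4% and 27.1%). SG against CS had 5 lower in A (17.9%, beside 17%) and 11 and 17 in 40D (39.3% and 60.7%, beside 38% and 32.8%). The same comparison had 13 lower in NEC (46.4%, beside 21.9%) and 1 higher in EC (3.57%, beside 16.2%). The interaction had 13 lower for 40D against A, and 10 and 11 for NEC against 40D. With the 18 A, 40D and NEC libraries alone, 40D against A had 13 higher in CS and 6 higher in SG, and NEC against 40D in SG had 6 higher. SG against CS had 12 and 6 in A, 13 lower in 40D and 13 lower in NEC. The interactions had 15 lower, and 7 and 8.

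With each 40D group as 1 sample, NEC against 40D had 4 and 5 in CS and 0 and 3 in SG. SG against CS had 2 and 4 in 40D and 3 higher in NEC. The interactions had 0 higher, and 1 and 2. With a log2 fold change of 1 or more, NEC against 40D had 5 lower in CS and 2 lower in SG, and SG against CS had 4 higher in A, 4 and 5 in 40D, 3 higher in NEC, and 1 and 2 in EC. The share of all loci fell at this setting too, to 10.5% in CS and 6.43% in SG for NEC lower than 40D, where the 28 had 17.9% and 7.14%. A pseudocount of 0.1 gave 4 higher in 40D and 2 higher in NEC for SG against CS, and 2 and 3 for the interaction of NEC against 40D.

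With equal library sums 40D against A in SG had 16 lower, and the median of all loci there went to -0.25. Median-of-ratios scaling gave 3 higher in NEC for SG against CS, and the rule with NEC as the low tissue took 2 loci. Without replicate 3 of every A and EC group, 0 rose in NEC against 40D in SG, and SG against CS had 4 higher in 40D, 3 higher in NEC and 1 higher in EC. Without SG EC replicate 1 and SG NEC replicate 2, SG against CS had 3 lower in A and 13 lower in EC. Leaving out each library gave 0 to 1 higher for NEC against 40D in SG, 4 higher in 40D and 3 higher in NEC for SG against CS, 1 to 2 lower in A, and 2 to 10 higher and 5 to 13 lower in EC.

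The number of loci that met the rule was 66 at a ratio of 4, 7 at a ratio of 16, 18 at a level of 40 FPKM, 11 for the lowest library against the highest EC library, and 24 to 32 with a library left out, 24 being without SG EC replicate 2. The deviations of same-numbered libraries from their group means had correlations between -0.26 and 0.17. The labels do not say whether the numbers pair the samples, and with 3 libraries per group these values cannot settle it. With a replicate block 112 of the 115 calls were made again and 3 were lost.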

Other observations

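The rule was met by 92 loci in SG and 47 in CS when each cultivar was taken alone, so the 28 shared loci were 30.4% of the SG list and 59.6% of the CS list. Of the 64 loci that met it in SG alone, 34 had 20 FPKM or more in A, 40D and NEC of CS as well, and 58 had their lowest CS mean in EC. Their lowest other tissue in CS exceeded CS EC by a median of 3.43 times. Of the 19 that met it in CS alone, 12 had the level in SG and 16 had their lowest SG mean in EC, with a median ratio in SG of 4.26. The share of all loci with their lowest mean in EC was not worked out, so nothing is read from the counts of 58 and 16. No difference between the cultivars was tested at these loci.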
